A study of Sus scrofa with 6 samples.

Results

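Wide methylated blocks are stretches of the pig genome, 2500 bp or longer, over which peaks of methylated DNA called in back muscle join into a single region. To find them, the peaks of all 6 deposited lists on chromosomes 1, 10, 11, 12 and 13 were joined wherever they overlapped by at least 1 bp, and joined regions of 2500 bp or more were kept. This gave 1167 blocks among 88582 regions (1.32%). The blocks added up to 4.01 Mb, which was 6.17% of the 65.0 Mb covered by all regions. Blocks were thus selected on the measured width of the called peaks, and on nothing else. The libraries are methylated DNA immunoprecipitation sequencing (MeDIP-seq) of longissimus dorsi, a back muscle, taken from purebred female pigs: 3 libraries are Yorkshire and 3 are Wannanhua. Yorkshire is a lean Western breed and Wannanhua a Chinese breed, and the design sets the methylation of 1 breed against the other. The labels number the libraries of a breed without saying in words that each came from its own animal, so any p-value measures only the spread between these libraries, which may be technical. Muscle is a mixture of cells, so a difference in methylation within cells and a difference in the mix of cells cannot be told apart.

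In MeDIP-seq an antibody against methylated cytosine pulls down sheared DNA, and the fragments pulled down are sequenced. Methylation in mammals falls mainly on cytosines that precede a guanine (CpG sites), most of which are methylated outside CpG islands. The antibody enriches a fragment more strongly the more methylated CpGs it carries, so the signal follows CpG density as well as the level of methylation. The ends of mammalian chromosomes tend to be rich in G and C, and tandem repeats and young transposons are typically methylated along their whole length. The lists name neither a genome build nor genes, and the gene table at hand belongs to another build, so blocks are given by position in the lists, the blocks were not placed in genes or parts of genes, no sequence is printed, and the tissue was not checked against marker genes.

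After removal of duplicates the libraries held 6728444 to 17108367 tags (sequenced fragment ends). The share removed was 0.58, 0.39 and 0.69 in Yorkshire 1, 2 and 3, and in Wannanhua it was 0.29 to 0.4. The peak caller's estimate of fragment length gave 150, 169 and 97 bp for Yorkshire 1, 2 and 3 but 179, 193 and 202 bp for Wannanhua 1, 2 and 3, so that fragment length separates the breeds. A peak list shows where a library passed the caller's cutoff, and a block without a peak in a library is not a block without tags.

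Most wide blocks were single long peaks rather than chains of short ones. The median block was 3117 bp wide against 619 bp for all regions, the widest was 12291 bp, and 223 blocks reached 4000 bp. In 1014 blocks (86.9%) at least 1 library had an unbroken peak of 2500 bp or more, and the longest peak of a block covered a median of 99.3% of its width. The remaining 153 blocks passed the width limit only by joining shorter peaks. Width chose the members and is given as a description.

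Long peaks came mainly from 3 libraries. Peaks of 2500 bp or more numbered 35, 292 and 20 in Yorkshire 1, 2 and 3 and 153, 657 and 554 in Wannanhua 1, 2 and 3. Yorkshire 2, Wannanhua 2 and Wannanhua 3 were also the deepest libraries, with 15275918, 17108367 and 15377451 filtered tags. The longest called stretch of a block lay in Wannanhua 2 for 561 blocks, in Wannanhua 3 for 403 and in Yorkshire 2 for 152. Among the shallower libraries, Wannanhua 1 had 153 such peaks from 7413391 tags and Yorkshire 1 had 35 from 10600292 tags. At nearly equal depth Yorkshire 2 had 292 and Wannanhua 3 had 554, with fragments of 169 and 202 bp. The part of depth and of fragment length in these differences was not tested.

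A block was often broken up or absent in some libraries. Of the 1167 blocks 458 had a peak in all 6 libraries, 263 in 5, 190 in 4, 134 in 3, 84 in 2 and 38 in a single library. In the same order of libraries, 767, 950 and 817 blocks had a peak in Yorkshire 1, 2 and 3 and 886, 1014 and 997 in Wannanhua 1, 2 and 3. Among the blocks that a library called, 16.9%, 13.8% and 25.3% were split into several peaks in Yorkshire 1, 2 and 3, and 12.8%, 8.58% and 9.43% in Wannanhua 1, 2 and 3. Every Wannanhua value lies below every Yorkshire value. The same held over all 19161 regions called in all 6 libraries, with 3.54%, 3.04% and 5.77% in Yorkshire and 2.17%, 2.01% and 1.45% in Wannanhua. In the 458 blocks called in all 6 libraries the breeds overlapped, with 17.5% in Yorkshire 2 and 17.7% in Wannanhua 1. The most peaks that any library had in a block was 3, and the gap between consecutive peaks of a library inside a block had a median of 236.5 bp over 796 gaps, from 124 bp in Wannanhua 2 to 603 bp in Yorkshire 3.

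**Figure D1:**
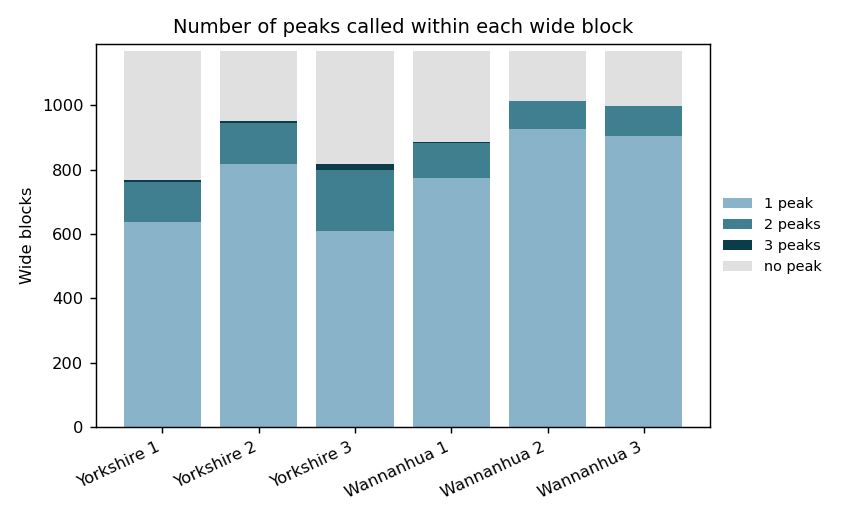
Number of the 1167 wide blocks (y axis) with no peak, 1, 2 or 3 peaks in each library (x axis). Yorkshire 3 has 207 blocks split into 2 or 3 peaks and Wannanhua 2 has 87, while Yorkshire 1 has a peak in 767 blocks and Wannanhua 2 in 1014.

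Splitting was more frequent in wide blocks than in all regions called in all 6 libraries. Of those regions 14309 were under 1000 bp, which leaves less room for several peaks. Joined peaks also add to the width that chose the blocks, so this contrast is given as a description. Of the 458 blocks called in all 6 libraries, 197 (43.0%) had exactly 1 peak in each library, against 90.4% of all 19161 regions called in all 6. A split was seen in Yorkshire libraries alone in 118 blocks, in Wannanhua libraries alone in 40 and in both breeds in 103, and 2 blocks were split in every library. Peaks per block averaged 1.26 ± 0.094 in Yorkshire and 1.15 ± 0.029 in Wannanhua (SD, n = 3). The difference, Wannanhua minus Yorkshire, was -0.111, and it was -0.0205 with peaks of score 100 or more and -0.00803 with equally many top-scoring peaks per library. The ranges of the breeds overlapped in nearly all blocks. Yorkshire libraries all had more peaks than Wannanhua libraries in 4 of 458 blocks (0.873%). The background was 0.266% over all 19161 regions and 1.07% over regions of 1000 to under 2500 bp. The reverse held in 3 blocks (0.655%), with backgrounds of 0.047% and 0.137%.

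The 5 blocks with the most peaks per library show what a split block looks like. At chr1:61040294-61042867 Yorkshire 1, 2 and 3 had 3 peaks each and Wannanhua 1, 2 and 3 had 2, 3 and 2, and this block is in the interior of the chromosome, 61.0 Mb from its nearer end. At chr13:34812836-34815983 the 3 Yorkshire libraries had 3 peaks each, Wannanhua 1 and 3 had 2, and Wannanhua 2 had a single peak across all 3148 bp. At chr12:44170360-44173671 the counts were 2, 2 and 3 in Yorkshire and 3, 2 and 1 in Wannanhua. The block at chr11:21830139-21833191 was split into 2 peaks in all 6 libraries. The remaining one, chr10:15773704-15785994, had 2 peaks in each of the 2 libraries that called it and is also the widest block of all.

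The highest point of a wide block moved between libraries. Taking for each library the summit of its highest-scoring peak in the block, the summits of the 6 libraries spread over a median of 834 bp, or 25.9% of the block's width, in the 458 blocks called in all 6. In 105 of them (22.9%) all 6 summits fell within 200 bp. Among 4394 regions of 1000 to under 2500 bp called in all 6 libraries the median spread was 188 bp and 51.0% lay within 200 bp, and over all 19161 regions the values were 78 bp and 84.3%. A wider region leaves more room for summits to spread, which the share of width takes into account only in part. Fold enrichment, the peak caller's ratio of tags to the local background and the authors' own value, was also lower in these blocks. The caller estimated that background over a window of 10000 bp without a control, and a wide block fills part of such a window. The fold is thus not independent of width, and the part of the window in the lower values was not tested. Where a library had several peaks in a region, the highest fold among them was taken. The median fold over the 458 blocks was 7.3, 6.55 and 10.8 in Yorkshire 1, 2 and 3 and 7.65, 6.58 and 6.8 in Wannanhua 1, 2 and 3. The medians of all regions called in all 6 libraries were 18.0, 15.7, 26.7, 16.2, 14.2 and 13.6 in that order. Yorkshire 3 was highest in both sets.

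Wide blocks lay at chromosome ends. Position played no part in choosing them, and 1061 of 1167 (90.9%, exact 95% binomial interval 89.1 to 92.5%, for counting error only) lay within 20 Mb of an end, against 36.7% of all regions. The end zones hold 26.2% of the length up to the last peak. Within 5 Mb of an end lay 57.3% of the blocks, 9.06% of all regions and 6.54% of the length. Put as a share of regions, 3.27% of the regions in end zones were wide blocks and 0.189% of those in the interior. The median distance to the nearer end was 3.68 Mb for blocks and 29.0 Mb for all regions.

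The share near ends was higher in wide than in narrow regions on each of the 5 chromosomes. Of regions under 500 bp 31.0% lay within 20 Mb of an end, of regions from 1000 to under 1500 bp 57.6%, of those from 2000 to under 2500 bp 84.8%, and of those of 4000 bp or more 94.2%. On chromosome 1, where the end zones are 12.7% of the length, the share went from 14.7% under 500 bp to 93.7% at 4000 bp or more. Chromosome 12, where they are 62.9% of the length, started at 62.0% and reached 96.9%. In single libraries the share of wide peaks near an end was 71.4%, 90.8% and 55.0% in Yorkshire 1, 2 and 3 and 94.1%, 93.0% and 92.4% in Wannanhua 1, 2 and 3, while all peaks of a library gave 33.3 to 38.2%. The 2 lowest values rest on 35 and 20 wide peaks.

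**Figure D2:**
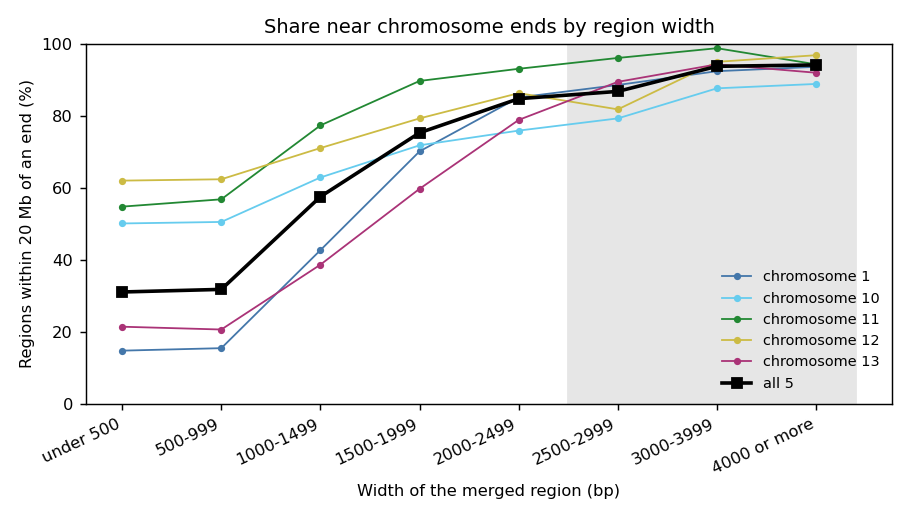
Share of merged regions within 20 Mb of a chromosome end (y axis, %) by width of the region (x axis, bp), for each chromosome and for all 5 together, with the classes of wide blocks shaded. The line for all 5 rises from 31.0% under 500 bp to 94.2% at 4000 bp or more.

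The chromosomes differed in which end carried the blocks. Chromosome 13 had 0 blocks in its first 20 Mb among 1845 regions there, which allows a share of up to 0.163%, and 124 blocks among 3050 regions in its last 20 Mb. In the pig this chromosome is acrocentric, with its centromere at 1 end. Chromosome 10 was also uneven, with 25 blocks in the first 20 Mb and 124 in the last. The other three carried blocks at both ends: 154 and 116 on chromosome 1, 123 and 110 on chromosome 11, and 163 and 122 on chromosome 12. The number of blocks did not always rise towards the end itself. In the last 20 Mb of chromosome 1, 17 of 116 blocks lay in the final 5 Mb, where 386 regions were called. They were 4.40% of those regions, against 4.07% over the last 20 Mb, and 16 of them lay among the 217 regions of the final 3 Mb (7.37%). On chromosome 10 only 5 blocks lay in the final 3 Mb, where 313 regions were called (1.60%, against 3.82% over its last 20 Mb).

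**Figure D3:**
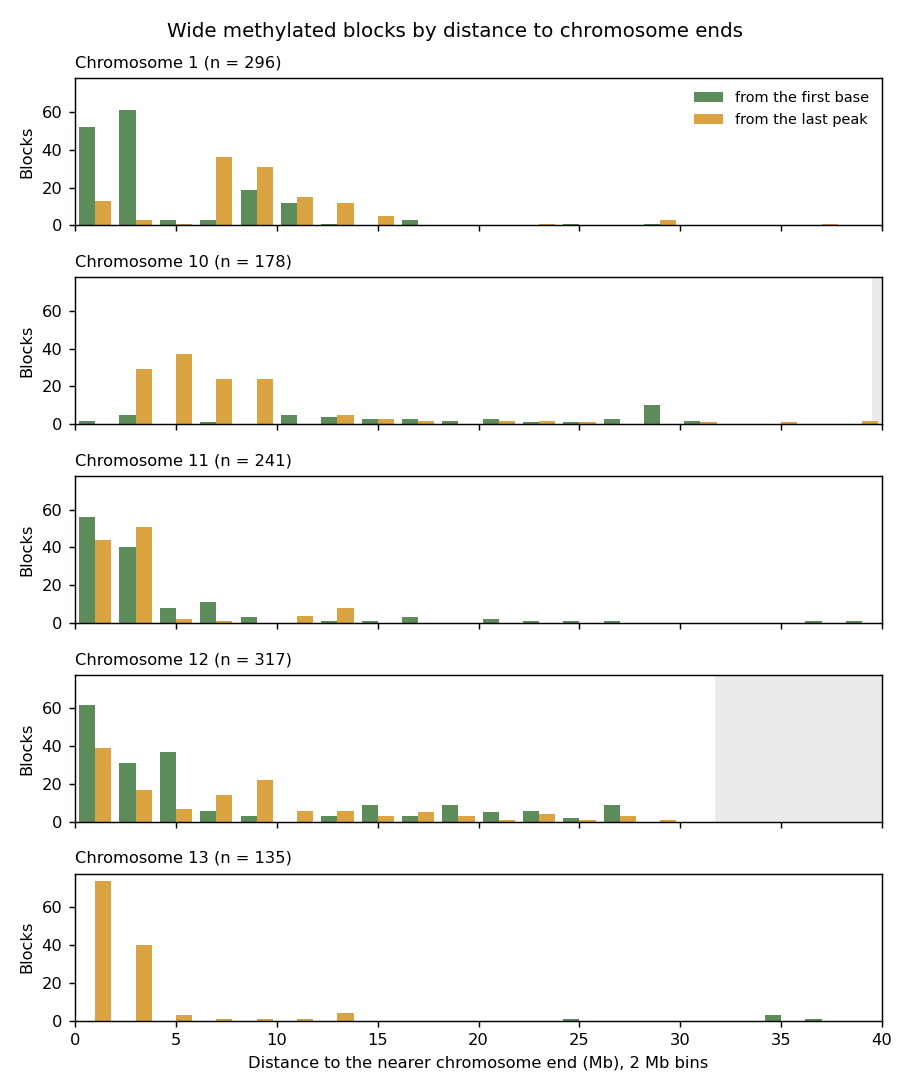
Number of wide blocks (y axis) by distance to the nearer chromosome end (x axis, Mb, in 2 Mb bins), counted from the first base and from the last peak of each chromosome, with the stretch beyond the middle of the chromosome shaded. On chromosome 13 the 124 blocks near an end all lie on the side of the last peak.

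Blocks per Mb were 4.99 on chromosome 12, 2.75 on chromosome 11, 2.25 on chromosome 10, 0.939 on chromosome 1 and 0.617 on chromosome 13. As a share of the regions of a chromosome the order was the same, from 2.76% on chromosome 12 to 0.640% on chromosome 13. Blocks were clustered: 585 of 767 windows of 1 Mb had none, and 39 windows with 10 or more held 811 blocks (69.5%). The window with the most was chr13:217000001-218000000, with 36 blocks among 167 regions and 128 kb of block in 1 Mb. It was followed by chr12:1000001-2000000 with 34 blocks, chr13:216000001-217000000 with 33, and chr11:1-1000000 and chr11:85000001-86000000 with 32 each. The median gap from a block to the next was 30.4 kb, 277 of 1162 gaps were within 10 kb, and 22 were within 1 kb. The closest pair, chr11:87580748-87583825 and chr11:87583847-87589293, was 21 bp apart.

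The 106 interior blocks were spread over all 5 chromosomes, with some stretches of 5 Mb holding several. Chromosome 10 from 25000001 to 30000000 held 14, chromosome 12 from 20000001 to 25000000 and from 25000001 to 30000000 held 11 each, and chromosome 1 from 160000001 to 165000000 held 8. Interior blocks had a median width of 2888 bp against 3153 bp in the end zones. A split in at least 1 library was seen in 55.7% of interior blocks and in 34.8% of end-zone blocks, and 50.9% and 38.1% of them were called in all 6 libraries. These 2 properties go together, since a block called in more libraries has more chances to be split: among blocks called in all 6, the split shares were 72.2% and 55.0%.

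A small number of wide blocks had a far higher tag density than most. Density is given as tags per kb of called peak scaled to 1000000 filtered tags (CPM per kb), taken as the median over the libraries that called the block. The median over all 1167 blocks was 4.32 CPM per kb, and over all regions 3.08. A level of 20 CPM per kb, chosen after the values were seen, was passed by 15 blocks (1.29%), with values from 20.4 to 106, and by 26 of all 88582 regions (0.0294%). A further 13 blocks lay between 10 and 20. Of the 15 dense blocks 7 were interior, where the share above 20 was 6.60%, and 8 were in end zones, where it was 0.754%.

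Among blocks called in all 6 libraries the densest was chr1:100577985-100581364, in the interior of chromosome 1, 101 Mb from its nearer end. Its 3380 bp held 3902, 4383 and 3625 tags in Yorkshire 1, 2 and 3 and 3404, 3957 and 3850 in Wannanhua 1, 2 and 3, in 1 peak of 2968 to 3371 bp per library. These counts were close to each other in libraries of 6728444 to 17108367 tags, so that scaled to depth the density ran from 68.6 CPM per kb in Wannanhua 2 to 182 in Yorkshire 3. The caller keeps at most 1 tag per position, a limit that bears most on dense blocks, and its part here was not tested. The breeds did not separate there (log2 fold change of Wannanhua over Yorkshire -0.18, SE 0.41, edgeR adjusted p = 0.867).

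The other 4 named dense blocks of this kind also held at least 1185 tags in every library. At chr12:61817059-61825864, the third widest block, the tags were 3914, 4489 and 2674 in Yorkshire and 3751, 5427 and 4866 in Wannanhua, in a single peak of 8131 to 8784 bp in each library, and the 6 summits fell within 12 bp. The block at chr10:21603521-21607240 had 1468, 2376 and 1185 tags in Yorkshire and 2228, 2920 and 2722 in Wannanhua. At chr10:15808970-15812428 the counts were 1280, 1983 and 1596 against 1387, 2168 and 1905, and at chr13:87550823-87556628 they were 1675, 2580 and 1405 against 1551, 2842 and 2063. None of these 4 passed the test of tags between breeds (edgeR adjusted p from 0.489 to 0.99), and the ranges of tags overlapped between the breeds in each of them. At chr10:21603521-21607240 only Yorkshire 2 reached the Wannanhua range in tags, and scaled to depth only Yorkshire 3 did, with 176 CPM against 171 to 301 in Wannanhua.

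Several dense blocks were called in some libraries and had no peak in others of greater depth. The widest block, chr10:15773704-15785994, held 5364 tags in Yorkshire 1 and 6825 in Yorkshire 3, in 2 peaks each, and had no peak in the 4 remaining libraries. At chr11:87471765-87480639, 0.214 Mb from the last peak of the chromosome, Yorkshire 1 and 3 had 3488 and 3028 tags and the others no peak. The single-library blocks chr12:53588330-53595682 (3779 tags) and chr11:37950366-37957490 (2022 tags) were both called in Yorkshire 3 alone, the shallowest library. Of the 15 dense blocks 6 were called in all 6 libraries and 5 in only 1 or 2, where 38 and 84 of all 1167 blocks were called in 1 and in 2.

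The same pattern was seen in neighbouring pairs. At chr1:157998480-158004811 the 3 Yorkshire libraries had 910, 2736 and 2574 tags and Wannanhua no peak, while 249 bp further on chr1:158005061-158011407 was called in Yorkshire 3 (2723 tags), Wannanhua 1 (3067) and Wannanhua 2 (4680) alone. In the pair 21 bp apart on chromosome 11, the first block was called in Yorkshire 1, Yorkshire 3 and Wannanhua 2 with 1300, 1129 and 1356 tags, and the second in Yorkshire 1 and 3 with 2213 and 1903. The caller estimated background over a window of 10000 bp, which is of the order of the width of these blocks. The fold over that background was 3.49 and 3.98 at chr10:15773704-15785994, taking the higher of the 2 peaks of each library. It was 2.96 at chr12:53588330-53595682, but 9.78 at chr11:37950366-37957490, which also lacked a peak in deeper libraries. In dense blocks called in all 6 libraries it ran from 4.35 to 5.34 at chr1:100577985-100581364 and from 6.08 to 10.8 at chr10:21603521-21607240. The part of the window in these missing peaks was not tested, and a missing peak here cannot be read as missing methylation.

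Most of the 10 widest blocks were not dense. At chr1:308350832-308359367, of 8536 bp, the tags were 67, 283 and 24 in Yorkshire and 224, 722 and 299 in Wannanhua, over called lengths of 1472, 4069 and 382 bp and 4046, 8380 and 3682 bp. Density there was 4.29 to 9.34 CPM per kb. At chr1:278506310-278514573 the called lengths were 2681, 1818 and 1797 bp in Yorkshire and 3321, 5946 and 6647 bp in Wannanhua, so that the ranges of the breeds did not overlap, with densities of 5.07 to 8.37 CPM per kb. A pair of blocks at the very start of chromosome 1 were among the widest. At chr1:58472-66098 called lengths ran from 602 bp in Yorkshire 3 to 7627 bp in Wannanhua 2 with the breeds interleaved, and at chr1:5622-13022 from 1168 bp in Yorkshire 3 to 7375 bp in Wannanhua 3. The block chr10:17590295-17598115 had 1043, 1475 and 528 tags in Yorkshire and 993 in Wannanhua 1, and no peak in Wannanhua 2 and 3. The block chr13:143807295-143814863 was called in Yorkshire 2 alone, with 367 tags over 7569 bp.

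Between the breeds, called stretches were longer on average in Wannanhua both in wide blocks and in regions as a whole, and tag density overlapped. Mean called length was longer in Wannanhua in 440 of 458 blocks (96.1%) and in 93.1% of all 19161 regions. In the 458 blocks called in all 6 libraries Yorkshire 1, 2 and 3 called a mean of 1404, 2282 and 747 bp per block, and Wannanhua 1, 2 and 3 called 1783, 2964 and 2750 bp. Yorkshire 2 exceeded Wannanhua 1, so the breeds overlapped, and the medians averaged 1359 ± 795 bp and 2324 ± 654 bp (SD, n = 3). A difference that separates the breeds fully would still have an exact permutation p of 0.1, the smallest that 3 against 3 libraries allow (two-sided). Called stretches took up a median of 38.8%, 66.7% and 18.9% of the block in Yorkshire and 49.5%, 93.8% and 87.7% in Wannanhua. The width of a block is set by its longest calls, mostly those of Wannanhua 2 and 3, so called length is not independent of how the blocks were chosen. In 90 of the 458 blocks (19.7%) every Wannanhua library had a longer call than every Yorkshire library, with a background of 15.9% over all regions called in all 6, and in 0 blocks the reverse, with a background of 0.0261%. In regions of 1000 to under 2500 bp these shares were 13.5% and 0.0683%.

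Median density in the same blocks was 4.24, 4.07 and 7.07 CPM per kb in Yorkshire 1, 2 and 3 and 6.10, 4.17 and 4.12 in Wannanhua 1, 2 and 3. The breeds overlapped, and in each of them the shallowest library, Yorkshire 3 and Wannanhua 1, had the highest value. Where wide blocks differed was in relation to other regions. Over all 19161 regions the medians were 4.33, 3.46 and 7.16 in Yorkshire and 4.00, 3.06 and 2.96 in Wannanhua, so that in Wannanhua 1, 2 and 3 and Yorkshire 2 the blocks lay above the typical region, and in Yorkshire 1 and 3 slightly below it. The fold of Wannanhua over Yorkshire in CPM per kb had a median of 0.934 in blocks, 0.764 in regions of 1000 to under 2500 bp and 0.667 in all regions. It was above 1 in 170 of the 458 blocks (37.1%) and in 9.10% of all regions. All 3 Wannanhua libraries were denser than all 3 Yorkshire libraries in 3 blocks (background 0.308%), and all 3 less dense in 16, or 3.49%, where the background was 18.7%.

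The tags summed over wide blocks are not independent of the choice by width either, since the longest call of a block lay in a Wannanhua library in most blocks, so the sums are given as a description. The blocks held 6.71%, 8.13% and 8.54% of all tags in peaks in Yorkshire 1, 2 and 3 and 14.1%, 11.3% and 10.6% in Wannanhua 1, 2 and 3, with no overlap between the breeds. The highest share was that of Wannanhua 1, with 7413391 tags, fragments of 179 bp and 0.29 of tags removed as duplicates. Yorkshire 3 had 6728444 tags, fragments of 97 bp and 0.69 removed. The part of depth, fragment length and duplicates in these shares was not tested. As a share of all filtered tags the values were 0.724%, 0.971% and 0.945% in Yorkshire and 1.25%, 1.34% and 1.21% in Wannanhua, again without overlap. Tags per block scaled to depth (CPM) were higher in every Wannanhua than in every Yorkshire library in 200 of the 458 blocks (43.7%), where the background was 8.48%, and lower in 2, with a background of 15.2%. Regions of 1000 to under 2500 bp lay between, at 20.5% and 8.12%. The fold of CPM had a median of 1.70 in blocks, 1.11 in regions of 1000 to under 2500 bp and 0.876 in all regions.

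**Figure D4:**
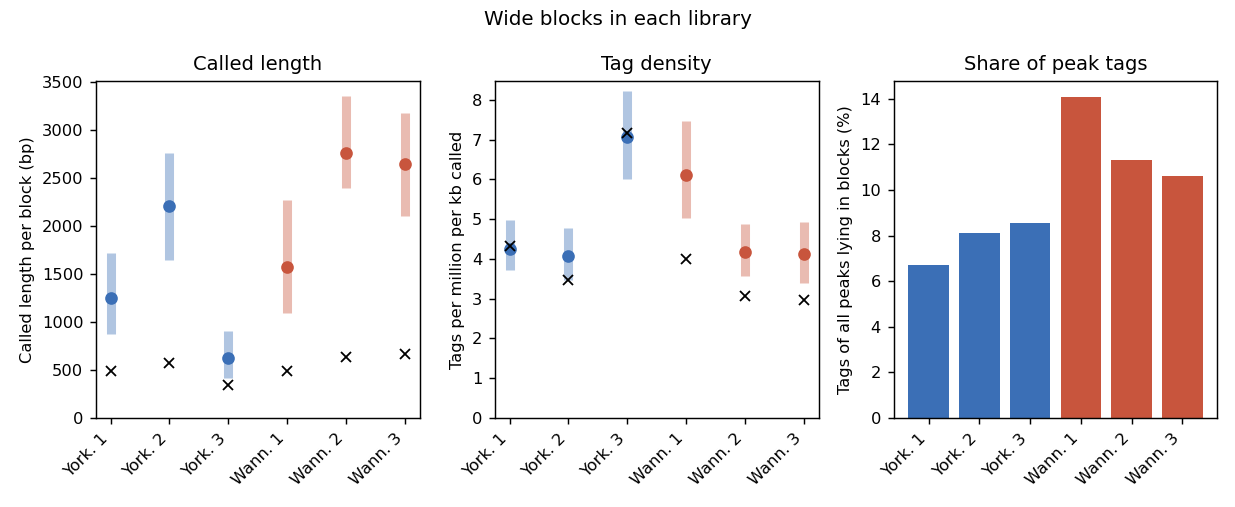
Wide blocks called in all 6 libraries, by library (x axis): called length per block in bp and tag density in CPM per kb (points are medians, bars the middle 50% of the 458 blocks, crosses the medians of all 19161 regions), and at the right the share of all peak tags that lies in the 1167 wide blocks (%). Called length is lowest in Yorkshire 3, and the Wannanhua shares of 10.6 to 14.1% are all above the Yorkshire shares of 6.71 to 8.54%.

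The test of tags was run on all 19161 regions with a peak in every library, by edgeR's quasi-likelihood test with TMM scaling, and 458 wide blocks were among them. At an adjusted p of 0.05, 21 blocks (4.59%) had more tags in Wannanhua, against a background of 0.543% of all regions tested (0.694% in either direction) and 1.52% of regions of 1000 to under 2500 bp. In the other direction 0 blocks passed by edgeR (2 at an unadjusted p under 0.05, and 1 by DESeq2), with a background of 0.151%. Log2 fold changes, taken as Wannanhua over Yorkshire, were above 0 in 433 of 458 blocks, with a median of 0.86, against -0.04 over all regions. With library sizes of filtered tags in place of TMM the median of all regions was -0.16 and that of blocks 0.74, and the regions called were 160 higher in Wannanhua and 96 in Yorkshire in place of 104 and 29, blocks being 55 and 1 of them. Since the sum of tags moves with the called length, these calls describe the blocks and are not independent of the choice by width.

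The 21 blocks lay without exception within 20 Mb of a chromosome end, as did 404 of the 458 tested. They were on chromosome 1 (9 blocks), chromosome 12 (6), chromosome 13 (4) and chromosome 11 (2), with 0 on chromosome 10. Of the 54 interior blocks 0 passed by edgeR, and DESeq2 called 10. At an unadjusted edgeR p under 0.05, 15 interior blocks were higher in Wannanhua and 2 in Yorkshire. Over all 19161 regions these unadjusted counts were 1803 and 1264, and DESeq2 called 515 and 20. The median log2 fold change was 0.53 in interior blocks and 0.89 in the end zones. In all 21 the CPM of every Wannanhua library was above that of every Yorkshire library, and in 16 the same held for called length. The backgrounds over all regions called in all 6 libraries were 8.48% for CPM and 15.9% for called length. The 21 were chosen by the test of these same tags, which move with called length, so both counts are descriptions and add no support to the calls. Called length was 2.17 to 5.33 times as long in Wannanhua, with a median of 3.21, while density differed by a median fold of 1.01, from 0.691 to 1.64, and its ranges were separate in 1 block.

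The block with the largest change was chr1:307539513-307545051. It had 21, 79 and 27 tags in Yorkshire 1, 2 and 3 and 133, 398 and 215 in Wannanhua 1, 2 and 3. Called lengths were 369, 1171 and 583 bp against 2337, 5539 and 3430 bp, so that the shortest Wannanhua call was longer than the longest Yorkshire call. Density was 5.37, 4.42 and 6.88 CPM per kb in Yorkshire and 7.68, 4.20 and 4.08 in Wannanhua, with the breeds interleaved. The log2 fold change of tags was 2.42 with SE 0.46 (edgeR adjusted p = 0.0135).

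Near the last peak of chromosome 12, chr12:63125716-63133360 had 75, 90 and 37 tags in Yorkshire and 261, 525 and 303 in Wannanhua, over 1770, 1611 and 938 bp and 5888, 7360 and 4687 bp. It was split in 5 of 6 libraries, into 2 peaks each, and only in Yorkshire 2 was it a single peak. The log2 fold change was 2.34 with SE 0.47 (edgeR adjusted p = 0.0183).

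Density set a pair of the named blocks apart. At chr13:218015066-218018859, 0.615 Mb from the last peak, the tags were 95, 76 and 13 in Yorkshire and 224, 412 and 263 in Wannanhua, and density was 3.67, 4.10 and 6.42 against 8.79, 6.49 and 7.97 CPM per kb. This is the block whose densities did not overlap, with Wannanhua 1.64 times as dense. Its neighbour 151 bp further on, chr13:218019011-218024016, had 36, 233 and 19 tags in Yorkshire and 67, 328 and 101 in Wannanhua with interleaved densities, and did not pass (log2 fold change 0.74, SE 0.52, edgeR adjusted p = 0.491). At chr1:310482799-310486718 the tags were 36, 36 and 28 in Yorkshire and 121, 219 and 189 in Wannanhua, with densities of 3.14, 2.39 and 4.50 against 6.65, 3.27 and 4.73 CPM per kb.

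In the remaining 6 named blocks every Wannanhua call was longer than every Yorkshire call, while density was 0.824 to 1.22 times that of Yorkshire. At chr12:1665860-1671277 the tags were 43, 214 and 26 in Yorkshire and 273, 491 and 394 in Wannanhua, over 995, 2886 and 356 bp and 5293, 5418 and 5306 bp, so that Wannanhua calls filled nearly the whole block. At chr1:2242783-2246318 called lengths were 507, 1031 and 465 bp against 2182, 3536 and 3335 bp, and the 6 summits lay within 80 bp. At chr13:217523189-217526450 they were 974, 1242 and 576 bp against 2985, 2909 and 3183 bp. The blocks chr1:305433994-305437355, chr1:2799608-2803953 and chr13:218100876-218104122 had the same order of called lengths. The log2 fold changes of tags in these 6 ran from 1.95 to 2.10.

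**Figure D5:**
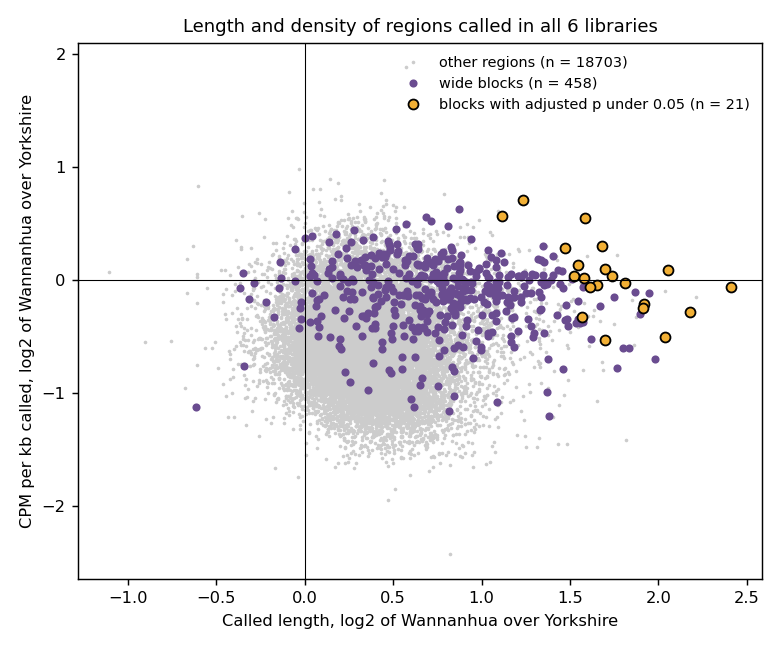
Each point is a region called in all 6 libraries: log2 of Wannanhua over Yorkshire for mean called length (x axis) and for mean CPM per kb of called peak (y axis), with the 458 wide blocks and the 21 that passed the test of tags marked. The 21 lie far to the right, at 2.17 to 5.33 times the Yorkshire length, and on both sides of 0 in density.

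These calls depended on single libraries and on what was held constant. Leaving out Yorkshire 1, 2 or 3 gave 0, 301 or 9 blocks in place of 21, and leaving out Wannanhua 1, 2 or 3 gave 6, 0 or 0 (123 blocks were higher in Wannanhua at an unadjusted p under 0.05 without Yorkshire 1, and 138 and 154 without Wannanhua 2 and 3), and 1 with fragment length as a covariate. Under that covariate the median log2 fold change of blocks was 0.14 in place of 0.86. At an unadjusted p under 0.05, 48 blocks were higher in Wannanhua and 31 in Yorkshire, in place of 228 and 2. Over all 19161 regions these unadjusted counts were 1803 and 1264 without the covariate, and they were not counted in the other fits. With called length as an offset, which centres density on the typical region, 13 blocks (2.84%) passed, 3 of them among the 21. Of all regions tested, 0.913% were then higher in Wannanhua. With library sizes of filtered tags in place of that centring 0 blocks passed (1 higher in Wannanhua and 19 higher in Yorkshire at an unadjusted p under 0.05). The median log2 fold change of blocks turned from 0.39 to -0.04.

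A peak in all 3 libraries of 1 breed and in none of the other was rare in wide blocks, as it was over all merged regions. In 25 blocks (2.14%) all 3 Wannanhua libraries and no Yorkshire library had a peak, where the background over all merged regions was 0.798%, and in 6 blocks (0.514%) the reverse held, where it was 1.47%. All 25 were within 20 Mb of an end, and 5 of the 6. Taking equally many top-scoring peaks per library instead gave 69 and 3 among 794 blocks. The background over all merged regions was not computed under that setting, so these 2 counts cannot be set against one. The longest call lay in Wannanhua 2 for 561 blocks and in Wannanhua 3 for 403, so a region without Wannanhua peaks had less opportunity to reach the width limit. The counts of the 2 directions are therefore not independent of the choice by width.

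The Wannanhua block with the highest mean score was chr12:55165229-55167756, with 81, 135 and 162 tags in Wannanhua 1, 2 and 3 over 1563, 1876 and 2212 bp and summits within 18 bp. At chr10:75084639-75087413 the tags were 134, 233 and 214 over 2448, 2775 and 2464 bp, with summits within 14 bp. The block chr13:218430067-218432807, 0.201 Mb from the last peak, had 97, 115 and 141 tags over 2700, 2672 and 2541 bp. A pair on chromosome 1, chr1:8501030-8503859 and chr1:8512321-8516723, had 43, 161 and 84 tags and 127, 336 and 278 tags. In some of the 10 named blocks Wannanhua 1 had a much shorter call than the others, as at chr10:16733469-16736112, with 10, 119 and 107 tags over 253, 2644 and 2594 bp. The remaining ones of the 10 were chr11:3021226-3024337, chr11:86896957-86899690, chr12:57050335-57053007 and chr1:2853240-2857184, with 36 to 202 tags per library.

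The 6 Yorkshire blocks included 2 with large counts, chr1:157998480-158004811 (above) and chr1:307338415-307341808, which had 173, 354 and 134 tags over 1685, 3394 and 1205 bp. The other 4, chr12:1489030-1492062, chr12:45236797-45239488, chr1:306434375-306438112 and chr13:216494024-216497638, had 21 to 86 tags in Yorkshire 1 and 3 and 112 to 226 in Yorkshire 2. In these 4, and at chr1:307338415-307341808, only Yorkshire 2 had a call of 2500 bp or more, so that their width rests on that library.

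The limit of 2500 bp was not a natural break. Just inside it were chr11:83795266-83797766 (2501 bp, called in Yorkshire 2, Wannanhua 2 and Wannanhua 3 with 65, 118 and 110 tags), chr11:85258107-85260610 (2504 bp, in the 3 Wannanhua libraries with 52, 98 and 59 tags) and chr12:15440288-15442792 (2505 bp, in all 6 libraries). Just outside were chr11:87533678-87536175 (2498 bp, in 4 libraries), chr12:55729542-55732038 (2497 bp, in all 6) and chr10:58722535-58725030 (2496 bp, in 5). Their densities, from 1.99 to 8.12 CPM per kb, are below the level of 20 CPM per kb used for dense blocks.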

How the data were processed

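The 6 deposited lists hold 65516 peaks each and end before the genome does. Chromosomes 1, 10, 11, 12 and 13 are complete in every list and were used. Per the file headers the authors called peaks per library with MACS (version 1.4.2 in 5 of 6 headers) without a control, at a p cutoff of 1e-05, with at most 1 tag per position. Aligner and genome build: not given in the sources used here. Per the file headers the tag counts of a peak are whole numbers, not normalized. The deposited fold enrichment is a ratio to the local background. The deposited score, which MACS derives from the negative log10 of p, ranked peaks, and the authors' positions and summits were used as given. Tags, called lengths and peaks were summed per region and library. Chromosome ends are the first base and the last peak in any list. The test of tags used edgeR 4.0.16 (R 4.3.3, TMM, filterByExpr, which removed 0 of 19161 regions, Benjamini-Hochberg over all regions tested), with DESeq2 1.42.0 as an alternative, and was tested on simulated data. Other steps used Python 3.11.15, numpy 2.4.6, scipy 1.17.1, pandas 2.3.3 and matplotlib 3.10.9. Named blocks were the 10 widest, up to 10 per direction past an adjusted p of 0.05 by fold change, the 5 densest called in all 6, the 5 with most peaks per library, up to 10 per breed called in that breed alone, and 3 on each side of the width limit. Dense blocks above 20 CPM per kb, the closest pairs and neighbours of named blocks were chosen after their values were seen. The members, lists and tests were chosen with earlier results of these data known. Regions without a peak in every library could not enter the test.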

Additional observations from a re-analysis of the deposited data

Results flagged for a closer look

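Long peaks also occurred outside the 5 chromosomes, in stretches of other chromosomes that the lists cover to different extents and that no comparison here uses. Peaks of 2500 bp or more there numbered 4 in Yorkshire 2, 4 in Yorkshire 3, 115 in Wannanhua 1, 13 in Wannanhua 2 and 69 in Wannanhua 3, all above the 3 that a count of 0 allows, and 3 in Yorkshire 1. They were 0.359% of the 32020 peaks that Wannanhua 1 lists there and 0.565% of the 12221 of Wannanhua 3. The stretches differ between libraries, so the counts were not compared.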

How the results depend on the processing

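The number of blocks was 2173 at a minimum width of 2000 bp, 674 at 3000 bp and 616 with peaks of score 100 or more, in place of 1167. Their share near a chromosome end was then 88.1% at 2000 bp and 93.9% at 3000 bp, in place of 90.9%, and 78.6% with end zones of 10 Mb. The difference in peaks per block (Wannanhua minus Yorkshire) was -0.0205 at score 100 and -0.00803 with the same number of top peaks per library, in place of -0.111. Blocks of Yorkshire alone were 12 at 2000 bp, 3 at score 100 and 3 with equal numbers of top peaks, in place of 6, and those of Wannanhua alone were 44 at 2000 bp, 11 at 3000 bp and 69 with equal numbers, in place of 25. Shares over all merged regions were not computed for these settings.

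Of all regions tested, 104 were higher in Wannanhua and 29 in Yorkshire by edgeR, among them 21 and 0 blocks. The counts were 160 and 96 with library sizes of filtered tags (blocks 55 and 1), 515 and 20 by DESeq2 (blocks 155 and 1, with 15231 regions given no adjusted p), 175 and 48 with called length as an offset (blocks 13 and 0), and 2 and 4 with fragment length as a covariate (blocks 1 and 0). With called length as an offset and library sizes of filtered tags, an alternative chosen after the data were seen, they were 1 and 1 (blocks 0 and 0). Under that setting 3 of the 10 named blocks changed sign: chr1:307539513-307545051 to -0.045, chr12:1665860-1671277 to -0.047 and chr1:2242783-2246318 to -0.22 on the log2 scale. The replicate block gave 225 and 48 regions (blocks 46 and 0), but same-numbered libraries of the breeds did not deviate together (correlations of -0.0094, 0.032 and -0.05 for numbers 1, 2 and 3), so the numbers were not taken as a pairing.

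Leaving out each library in turn gave 840 to 1165 blocks (lowest without Wannanhua 2), a difference in mean called length of 663 to 1482 bp in place of 1021, in peaks per block of -0.163 to -0.0603, and in median CPM per kb of -1.03 to 0.61 in place of -0.33, positive without Yorkshire 3 (0.614), Wannanhua 2 (0.0395) or Wannanhua 3 (0.0238). Yorkshire-only blocks ranged from 5 to 11 (highest without Wannanhua 1) and Wannanhua-only blocks from 20 to 82 (82 without Yorkshire 2, 48 without Yorkshire 3). For these counts too no share over all merged regions was computed. The share near an end was 90.9 to 91.7%. Regions higher in Wannanhua numbered 1 to 1543 and in Yorkshire 0 to 321, and blocks 0 to 301 and 0 to 1, the high counts all coming without Yorkshire 2. The cause of these changes was not tested. The 10 named blocks kept a positive log2 fold change in each of these refits, but they were chosen by that change, so this adds no support. An edgeR adjusted p under 0.05 was kept by 0, 10 and 6 of the 10 without Yorkshire 1, 2 and 3. Without Wannanhua 1, 2 and 3 it was kept by 3, 0 and 0 of the 10. Depth ranged from 6728444 to 17108367 filtered tags, and its part in missing or short calls was not tested.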
